A study of Mus musculus with 15 samples.

Results

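This report describes 38 genes that were dim in the TER119 positive fraction of wild-type mouse fetal liver and brighter in the same fraction of embryos labelled Klf3 knockout (KO). They were taken from 19938 genes measured on arrays. A gene was chosen when the mean of its 4 wild-type (WT) TER119 positive arrays was below 6 on the log2 scale, the mean of the 3 KO TER119 positive arrays was higher by at least 0.8, and the lowest KO array lay above the highest WT array. A log2 difference of 0.8 is a 1.74-fold difference. A WT mean below 6 was common, at 11655 genes or 58.5% of all. All 3 conditions were met by 46 genes, and 8 of these were left out by name: Rragd, C1qtnf12, Klf8, Dffb, Prune2, Setd4, Cmpk2 and Acot10. The genes were chosen by their values on KO and WT TER119 positive arrays, so the difference between these groups is given as a description and carries no test. Values in TER119 negative arrays entered only through the probe set kept for each gene, the one of highest mean over all 15 arrays. The 3 conditions did not use them.

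The study compared KO and WT fetal livers of FVB/NJ embryos at embryonic day E14.5, after magnetic sorting with beads against TER119, a surface antigen of maturing red cells. There were 3 arrays of KO TER119 positive cells (positive selection), 4 of WT TER119 positive cells, 4 of KO TER119 negative cells (the depleted remainder) and 4 of WT TER119 negative cells. Nothing in the labels gives the deleted part of Klf3, any pooling of embryos or the origin of the replicates, so a p-value here covers the spread among arrays, some of which may be technical. Total RNA was hybridised to Affymetrix MoGene 1.0 ST arrays, and values are log2 expression after RMA, a method that subtracts background, equalises the arrays and combines probes into 1 value per probe set.

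KLF3 is a zinc finger protein of the Krüppel-like family that binds CACCC boxes and related GC-rich sites in DNA. It represses genes by recruiting the corepressor CtBP. In red cell precursors its gene is switched on by KLF1, an activator of the same family that binds the same kind of site and drives red cell genes.

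Promoter sequence was available from RefSeq (build GRCm38.p6) for 34 of the 38 genes, and 29 of these had a single window of the 250 bases before the gene's start. The motif CACCC, searched on both strands (CACCC or GGGTG), was present in 19 of the 29 windows (65.5%), against 6950 of the 12935 measured genes with a single window (53.7%). The longer motif CCNCNCCC, also searched on both strands and able to overlap CACCC, was present in 21 of the 29 (72.4%) against 54.8% of all. The GATA-like letters AGATAA, on either strand, were in 1 of the 29 (3.45%) against 8.96%. The windows of the 29 had a median GC content of 61.6%, against 56.4% for all, and how far base composition accounts for the motif shares was not tested. A match is a description of the letters. The windows of 5 of the genes with a single window are printed as examples, chosen by the size of the difference. Kdelr3, Hydin and Klhl2 had large differences in TER119 positive cells, and Sgcb and Ano1 had the largest in TER119 negative cells. Capitals mark CACCC on either strand, and each sequence reads 5′ to 3′ on the gene's own strand.
Kdelr3: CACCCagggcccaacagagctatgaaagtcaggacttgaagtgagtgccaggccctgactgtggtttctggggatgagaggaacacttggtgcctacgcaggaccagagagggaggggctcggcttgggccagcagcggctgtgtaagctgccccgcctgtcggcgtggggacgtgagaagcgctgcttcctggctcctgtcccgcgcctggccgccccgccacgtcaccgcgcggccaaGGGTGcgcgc
Hydin: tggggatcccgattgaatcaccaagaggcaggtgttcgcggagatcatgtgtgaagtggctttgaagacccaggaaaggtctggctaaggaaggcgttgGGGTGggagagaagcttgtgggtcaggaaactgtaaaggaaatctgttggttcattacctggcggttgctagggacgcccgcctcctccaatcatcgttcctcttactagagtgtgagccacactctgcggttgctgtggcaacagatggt
Klhl2: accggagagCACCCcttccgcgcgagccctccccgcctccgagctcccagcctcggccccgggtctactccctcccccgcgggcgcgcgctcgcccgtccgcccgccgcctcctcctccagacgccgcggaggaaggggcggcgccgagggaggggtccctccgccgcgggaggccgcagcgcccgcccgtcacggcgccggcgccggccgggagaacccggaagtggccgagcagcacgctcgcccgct
Sgcb: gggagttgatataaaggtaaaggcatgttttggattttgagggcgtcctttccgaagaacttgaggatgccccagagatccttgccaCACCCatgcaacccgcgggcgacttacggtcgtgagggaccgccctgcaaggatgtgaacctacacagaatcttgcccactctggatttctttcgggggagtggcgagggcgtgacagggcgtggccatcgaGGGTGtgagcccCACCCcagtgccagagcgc
Ano1: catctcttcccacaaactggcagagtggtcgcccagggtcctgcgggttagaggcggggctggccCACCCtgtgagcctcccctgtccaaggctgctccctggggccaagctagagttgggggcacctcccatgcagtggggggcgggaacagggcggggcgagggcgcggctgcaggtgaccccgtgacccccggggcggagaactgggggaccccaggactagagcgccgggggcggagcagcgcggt

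The window of Kdelr3 is chr15:79516158-79516407 on the plus strand and held 2 matches, 250 and 10 bases before the start. That of Hydin is chr8:110266727-110266976 on the plus strand, with 1 match 151 bases before the start. That of Klhl2 is chr8:64849925-64850174 on the minus strand, with 1 match 241 bases before the start. That of Sgcb is chr5:73647738-73647987 on the minus strand and held 3 matches, the farthest 163 and the nearest 19 bases before the start. That of Ano1 is chr7:144738574-144738823 on the minus strand, with 1 match 185 bases before the start. All 5 held the motif. It was in 65.5% of the 29 windows and in 53.7% of all measured genes with a single window, so nothing is read from this. The 5 genes have the largest differences among the genes with a single window, so 9530077C05Rik, which has 2 windows, was passed over.

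The probe set of Klf3 read 10.34 to 10.55 in KO TER119 positive, 9.94 to 10.50 in WT TER119 positive, 8.02 to 8.74 in KO TER119 negative and 7.94 to 8.80 in WT TER119 negative arrays, so it does not check the labels, and KO stands for the label throughout. Arrays of a group correlated at 0.971 to 0.995. Within TER119 negative cells, KO replicate 4 and WT replicates 2 and 4 stood apart on the first principal component, which held 54.2% of the variance. Within TER119 positive cells, WT replicates 1 and 3 stood apart on a component with 38.1% of the variance. Summed marker lists placed red cell RNA in the labelled fraction: the mean of 19 red cell precursor genes was 11.3 to 11.36 in KO and 11.1 to 11.36 in WT TER119 positive arrays, against 8.06 to 8.51 in KO and 8.07 to 8.32 in WT TER119 negative arrays. The positive fraction was mixed: in WT arrays the mean of 22 hepatocyte-lineage genes was 11.47 in TER119 positive and 7.06 in TER119 negative cells, that of the macrophage list 8.26 and 5.89, and that of the stromal and stellate list 6.60 and 5.20. By the expression of sex-linked genes the KO TER119 positive arrays held 1 male and 2 female samples. The WT TER119 positive arrays held 2 and 2, the KO TER119 negative arrays 1 and 3, and the WT TER119 negative arrays 4 and 0. Sex and genotype are thus largely confounded in TER119 negative cells.

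In KO TER119 positive arrays the 38 genes averaged 6.66, 6.55 and 6.66, against 5.27, 5.21, 5.22 and 5.24 in WT TER119 positive arrays, while the mean of all genes was 6.06 to 6.11 on every array. In TER119 negative arrays the same 38 genes averaged 5.75 to 5.81 in KO and 5.57 to 5.75 in WT. The differences in TER119 positive cells had a median of 1.24 and ran from 0.80 to 3.18, which is 1.75-fold to 9.08-fold with a median of 2.36-fold. A difference of at least 1 was seen in 25 genes, of at least 2 in 6 and of at least 3 in 1. Without the WT arrays that stand apart (chosen after seeing the data) the differences of the 38 genes ran from 0.71 to 3.07, and the rule found 39 genes, of which 31 are among the 38. The array values carry no detection calls, and RMA compresses dim signals, so a fold against a dim WT level is not exact. In sorted bulk RNA, more cells of a type and more RNA per cell cannot be told apart.

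**Figure D1:**
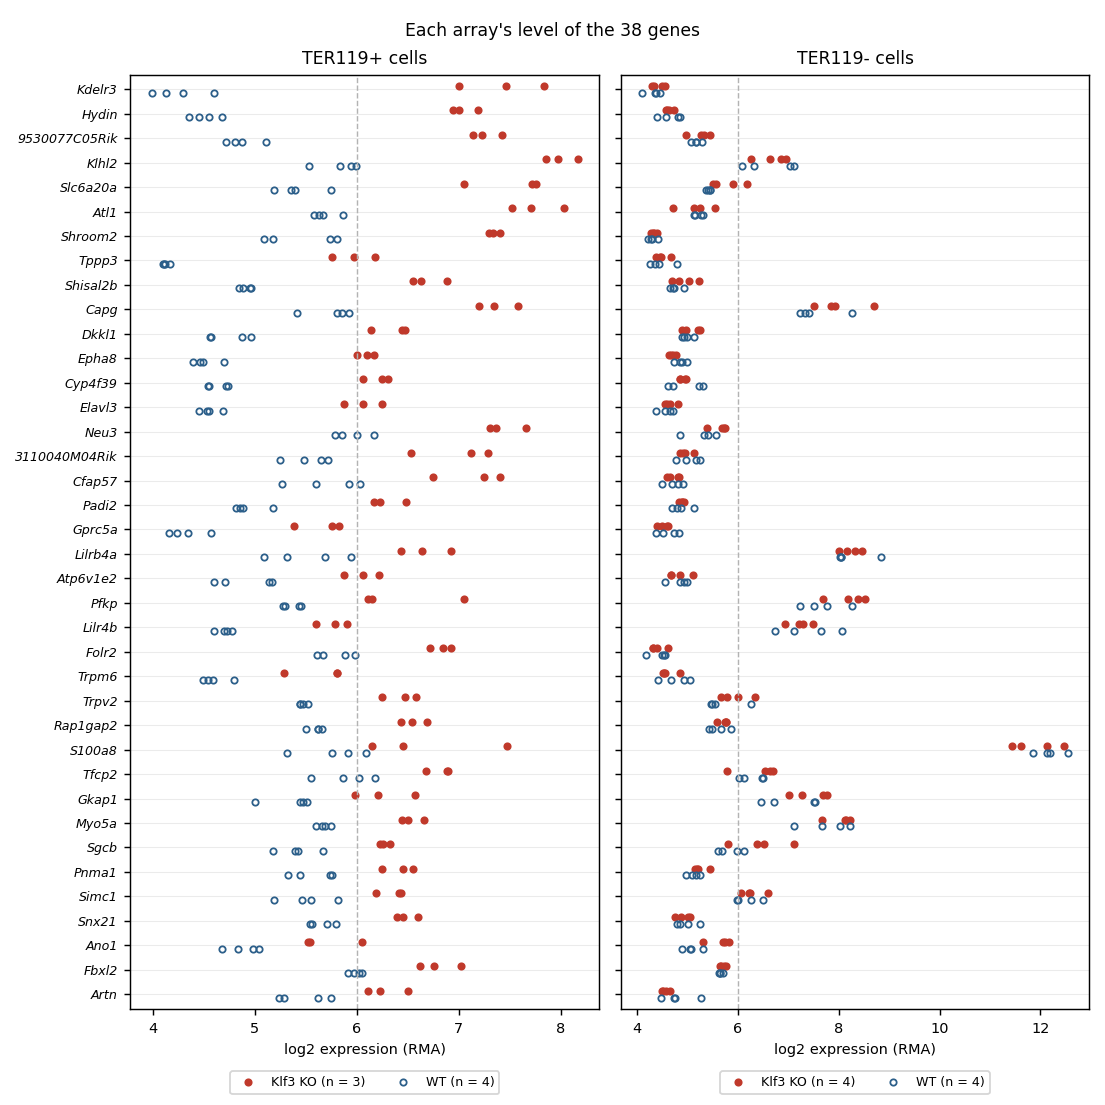
Level of each of the 38 genes on each array (log2 expression, x axis; genes down the page, ordered by the difference in TER119 positive cells), with TER119 positive cells on the left and TER119 negative cells on the right. Filled red points are KO arrays (n = 3 and n = 4) and open blue points WT arrays (n = 4 each); the dashed line marks 6. In TER119 positive cells all KO points lie right of all WT points by the rule, while in TER119 negative cells the groups overlap for 36 of the 38 genes.

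The secretory and membrane traffic genes held the largest difference. Kdelr3, a receptor that returns escaped proteins carrying a KDEL signal to the endoplasmic reticulum, was at 7.84, 7.01 and 7.46 in KO TER119 positive arrays, against 4.29, 4.13, 3.99 and 4.60 in WT TER119 positive arrays. The means were 7.44 ± 0.42 in KO (SD, n = 3) and 4.25 ± 0.26 in WT (SD, n = 4), a difference of 3.18. In TER119 negative cells Kdelr3 was dim, at 4.49, 4.34, 4.29 and 4.55 in KO and 4.36, 4.38, 4.10 and 4.44 in WT. Its paralog Kdelr1 was bright in both groups, with a difference of -0.03 in TER119 positive cells. Atl1, a GTPase that fuses tubules of the endoplasmic reticulum, was at 8.03, 7.70 and 7.52 in KO TER119 positive arrays, against 5.58, 5.67, 5.63 and 5.87 in WT. In TER119 negative arrays it was at 4.71, 5.13, 5.25 and 5.53 in KO and 5.26, 5.15, 5.30 and 5.13 in WT, values that overlap. Snx21, a sorting nexin of endosomal traffic, had one of the smaller differences, 0.83.

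The genes of cilia and the cytoskeleton had a median difference of 1.74 over 6 genes. Hydin, a protein of the central apparatus of motile cilia, was at 7.18, 6.94 and 7.01 in KO TER119 positive arrays, against 4.45, 4.36, 4.55 and 4.68 in WT, a difference of 2.53. Its TER119 negative arrays were at 4.57, 4.59, 4.63 and 4.73 in KO and 4.56, 4.85, 4.39 and 4.80 in WT, so the 3 KO TER119 positive arrays stood above every other array. Shroom2, an actin-binding protein that shapes cells, was at 7.34, 7.41 and 7.30 in KO, against 5.09, 5.74, 5.17 and 5.81 in WT TER119 positive arrays; the WT arrays thus varied more than the KO arrays. Its TER119 negative arrays were at 4.30, 4.28, 4.39 and 4.34 in KO and 4.21, 4.26, 4.28 and 4.42 in WT. Tppp3, which promotes tubulin assembly, was at 5.97, 5.76 and 6.18 in KO, against 4.10, 4.11, 4.17 and 4.12 in WT, so its KO level was still near the limit of 6 that the rule set for WT. It was at 4.46, 4.36, 4.46 and 4.66 in KO and 4.44, 4.79, 4.25 and 4.36 in WT TER119 negative arrays, which overlap. Capg, an actin-capping protein of the gelsolin family found in macrophages, was at 7.20, 7.34 and 7.58 in KO TER119 positive arrays, against 5.86, 5.81, 5.41 and 5.93 in WT. In TER119 negative cells it was bright in both groups, at 8.70, 7.92, 7.84 and 7.51 in KO and 7.33, 7.41, 8.26 and 7.22 in WT. Myo5a, a myosin motor that carries cargo along actin, was at 6.50, 6.66 and 6.44 in KO TER119 positive arrays, against 5.75, 5.69, 5.60 and 5.65 in WT. In TER119 negative arrays it was at 8.13, 8.23, 8.15 and 7.67 in KO and 8.02, 7.66, 8.21 and 7.12 in WT. Cfap57, a cilia- and flagella-associated protein, had a difference of 1.43, but its other probe set read 4.18 in KO and 4.19 in WT TER119 positive arrays, a difference of -0.02. Beside Hydin, which was chosen on this contrast, 0 of 18 measured motile cilia genes were called in TER119 positive cells by limma's adjusted test and 0 had an unadjusted p below 0.05. Of all genes, 0.903% were called higher and 0.115% lower, and 3.22% were higher and 2.11% lower at the unadjusted level.

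Among 6 channels and transporters the differences ran from 0.82 to 2.08. Slc6a20a, a carrier of proline and other imino acids, was at 7.72, 7.75 and 7.05 in KO TER119 positive arrays, against 5.35, 5.40, 5.75 and 5.19 in WT. In TER119 negative arrays it was at 5.50, 5.56, 6.17 and 5.89 in KO and 5.36, 5.40, 5.44 and 5.44 in WT. It is 1 of 2 genes among the 38 whose KO and WT arrays did not overlap in TER119 negative cells; 1.22% of all genes had such a gap with KO higher and 1.41% with KO lower. Ano1, a calcium-activated chloride channel, was the other. It was at 5.54, 5.52 and 6.05 in KO TER119 positive arrays, against 4.98, 4.84, 4.68 and 5.04 in WT, and at 5.71, 5.82, 5.75 and 5.31 in KO TER119 negative arrays, against 5.06, 5.05, 4.88 and 5.30 in WT. The lowest KO and the highest WT array of TER119 negative cells were thus at 5.31 and 5.30. Trpv2, a calcium-permeable cation channel, was at 6.47, 6.24 and 6.58 in KO TER119 positive arrays, against 5.48, 5.52, 5.45 and 5.44 in WT. In TER119 negative arrays it was at 6.33, 5.77, 6.0 and 5.66 in KO and 5.54, 5.48, 6.26 and 5.47 in WT. The others were Trpm6, a magnesium channel, with a difference of 1.03, Folr2, a folate receptor of macrophages, with 1.04, and Atp6v1e2, a testis form of a subunit of the vacuolar proton pump, with 1.15.

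The ligands, receptors and signalling genes, 9 in all, had a median difference of 1.07. Dkkl1, a secreted protein related to the dickkopf family, was at 6.45, 6.14 and 6.47 in KO TER119 positive arrays, against 4.56, 4.57, 4.96 and 4.88 in WT. Epha8, a receptor for ephrins, was at 6.0, 6.17 and 6.10 in KO, against 4.49, 4.39, 4.69 and 4.46 in WT. In TER119 negative cells Dkkl1 was at 5.20, 5.24, 4.88 and 4.96 in KO and 5.13, 4.99, 4.88 and 4.93 in WT. Epha8 was at 4.77, 4.63, 4.68 and 4.72 in KO and 4.89, 4.99, 4.72 and 4.85 in WT TER119 negative arrays. Both were thus dim in that fraction, with overlap between KO and WT. S100a8, a calcium-binding protein abundant in neutrophils, was at 7.47, 6.45 and 6.15 in KO TER119 positive arrays, against 6.09, 5.91, 5.32 and 5.76 in WT, with its lowest KO array 0.06 above its highest WT array. In TER119 negative arrays it was bright, at 12.46, 11.61, 11.43 and 12.12 in KO and 11.85, 12.55, 12.18 and 12.14 in WT. Gkap1, an anchor of cGMP-dependent protein kinase, was at 6.57, 5.98 and 6.21 in KO TER119 positive arrays, against 5.51, 5.44, 5.0 and 5.47 in WT. On TER119 negative arrays it was at 7.69, 7.27, 7.77 and 7.00 in KO and 7.50, 6.72, 7.53 and 6.46 in WT, so the groups overlapped. Gprc5a, an orphan G protein-coupled receptor, had a difference of 1.32, Rap1gap2, which switches off the small GTPase RAP1, 0.96, and Artn, a ligand of the GDNF family, 0.80. Lilrb4a and Lilr4b, leukocyte immunoglobulin-like receptors, had differences of 1.15 and 1.07; they are neighbouring, near-identical copies, so which of them the signal belongs to is uncertain.

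The 4 enzymes had differences of 1.07 to 1.57. Neu3, a membrane sialidase that acts on gangliosides, was at 7.30, 7.36 and 7.66 in KO TER119 positive arrays, against 6.17, 5.86, 5.79 and 6.01 in WT. On TER119 negative arrays it was at 5.39, 5.74, 5.72 and 5.67 in KO and 5.57, 5.40, 5.33 and 4.86 in WT, with overlap. Pfkp, the platelet form of phosphofructokinase, was at 6.11, 6.15 and 7.05 in KO TER119 positive arrays, against 5.45, 5.30, 5.27 and 5.43 in WT, so 1 KO array lay well above the other 2. On TER119 negative arrays it was at 8.51, 8.38, 8.18 and 7.68 in KO and 7.76, 7.51, 8.25 and 7.24 in WT. Cyp4f39, a fatty acid hydroxylase, and Padi2, which converts arginine residues to citrulline, had differences of 1.57 and 1.36 and were dim in TER119 negative cells.

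Of the 3 genes of protein turnover and SUMO binding, Klhl2, an adaptor of CUL3 ubiquitin ligases, was in KO TER119 positive arrays at 8.17, 7.86 and 7.97, against 5.94, 5.84, 5.54 and 5.99 in WT. On TER119 negative arrays it was at 6.86, 6.95, 6.64 and 6.26 in KO and 7.11, 6.31, 7.03 and 6.08 in WT, so the groups overlapped there. Fbxl2, an F-box protein, was at 6.76, 7.02 and 6.62 in KO TER119 positive arrays, against 5.92, 6.02, 5.97 and 6.06 in WT. Its TER119 negative arrays were at 5.72, 5.76, 5.66 and 5.64 in KO and 5.64, 5.64, 5.63 and 5.71 in WT, with overlap. Simc1, a SUMO-interacting protein, had a difference of 0.84.

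The other 7 genes had a median difference of 1.45. The transcript 9530077C05Rik was at 7.42, 7.23 and 7.14 in KO TER119 positive arrays, against 5.11, 4.88, 4.80 and 4.71 in WT. The TER119 negative arrays were at 4.98, 5.32, 5.26 and 5.45 in KO and 5.28, 5.17, 5.17 and 5.06 in WT, with overlap. The transcript 3110040M04Rik had a difference of 1.45, and its other probe set differed by 1.74. Shisal2b, a small membrane protein, was at 6.63, 6.55 and 6.88 in KO, against 4.96, 4.85, 4.96 and 4.88 in WT TER119 positive arrays. It was at 4.84, 4.68, 5.02 and 5.22 in KO and 4.72, 4.72, 4.65 and 4.93 in WT TER119 negative arrays, so only the TER119 positive groups were apart. Elavl3, an RNA-binding protein of neurons, had a difference of 1.5, Tfcp2, a transcription factor that binds the alpha-globin promoter, 0.92, and Pnma1, named for an antigen of paraneoplastic disease, 0.85. Sgcb, a sarcoglycan of the muscle membrane complex, was at 6.23, 6.33 and 6.26 in KO, against 5.42, 5.39, 5.18 and 5.66 in WT TER119 positive arrays. The TER119 negative arrays were at 7.12, 6.37, 6.51 and 5.80 in KO and 5.97, 5.67, 6.12 and 5.59 in WT, so most KO arrays were higher but the ranges overlapped. Sgcb is the only gene of the 38 on chromosome 5, which also carries Klf3; the 38 genes lie on 17 chromosomes, with at most 5 on any of them.

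In TER119 negative cells none of the 38 genes passed the adjusted test of KO against WT (limma over 19938 genes, lowest adjusted p = 0.331), where 15 genes or 0.0752% of all were called higher (0.0429% of those dim in WT TER119 positive cells) and 2 or 0.01% lower. At an unadjusted p below 0.05, 5 of the 38 were higher and 0 lower, against 3.73% higher and 3.84% lower among all genes, and 1.63% higher among genes with a WT TER119 positive mean below 6. Ano1 had a difference of 0.57 (SE 0.14, adjusted p = 0.331 in limma). With array weights it was 0.71 and passed (adjusted p = 0.0481 in limma), and without the arrays that stand apart it was 0.79 and did not (adjusted p = 0.256 in limma). Sgcb had the largest difference, 0.61 (SE 0.20, adjusted p = 0.622 in limma), and 0.62 without the arrays that stand apart. Pfkp, Slc6a20a and Neu3 had differences of 0.50, 0.37 and 0.34, with adjusted p of 0.653 to 0.656 in limma. The other genes named for the size of their difference were Capg (0.44), Gkap1 (0.38), Myo5a (0.29), S100a8 (-0.27) and Trpv2 (0.25).

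The median difference of the 38 genes in TER119 negative cells was 0.04, against -0.02 for all genes and -0.07 for genes with a WT TER119 positive mean below 6. The difference was positive in 24 genes and negative in 14, and in 28 and 10 when quantile normalization was repeated. It was positive in 46.2% of all genes and 27% of the dim ones, and in 50.4% and 46.7% with the repeat. The split thus moves with the normalization. For 17 of the 38 the sign changed under at least 1 other setting. For 33 of the 38 the upper 95% bound of the difference in TER119 negative cells lay below 0.8, and for Ano1, Sgcb, Pfkp, Capg and Gkap1 it did not. Kdelr3 had an interval of -0.24 to 0.44 and Hydin of -0.26 to 0.21. Of the 8 genes left out by name, 3 passed the test in TER119 negative cells: C1qtnf12 at 1.06, Rragd at 0.86 and Klf8 at 0.75, with adjusted p of 0.000488, 0.0236 and 0.0149 in limma. The rule left them out by name, which bears on the count of 0 given for the 38 genes. A further 90 genes met the same limits on difference and gap but had a WT TER119 positive mean of at least 6. Of these 90, 3 passed in TER119 negative cells, and the median difference of the 90 there was 0.24. In the same cells 31 of the 90 were higher at an unadjusted p below 0.05 in limma, against 3.73% of all genes. That share depends on the level, since it was 1.63% among genes with a WT TER119 positive mean below 6. It was not counted for genes at or above 6, so 3.73% is too low a measure for the 90. The medians given above are likewise not matched to their level. Whether the difference itself varies between the fractions was not tested, since the rule used one of the effects.

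**Figure D2:**
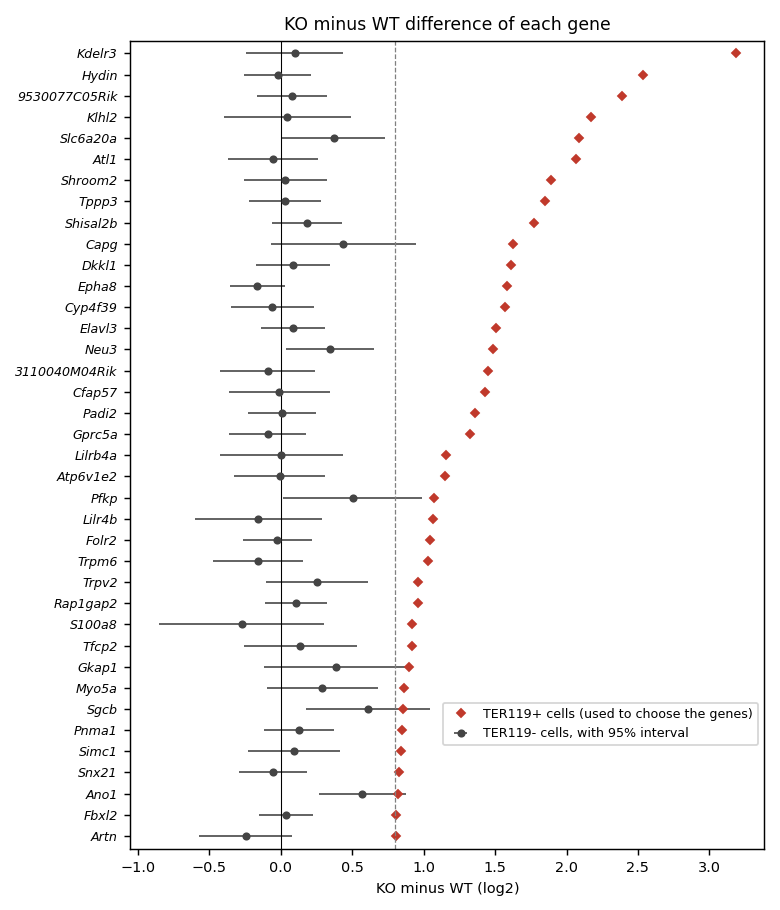
KO minus WT difference (log2, x axis) of each of the 38 genes, with red diamonds for TER119 positive cells and grey points with 95% intervals from the limma model for TER119 negative cells. The dashed line marks 0.8, the smallest difference the rule allowed in TER119 positive cells; the intervals of 33 genes end below it.

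**Figure D3:**
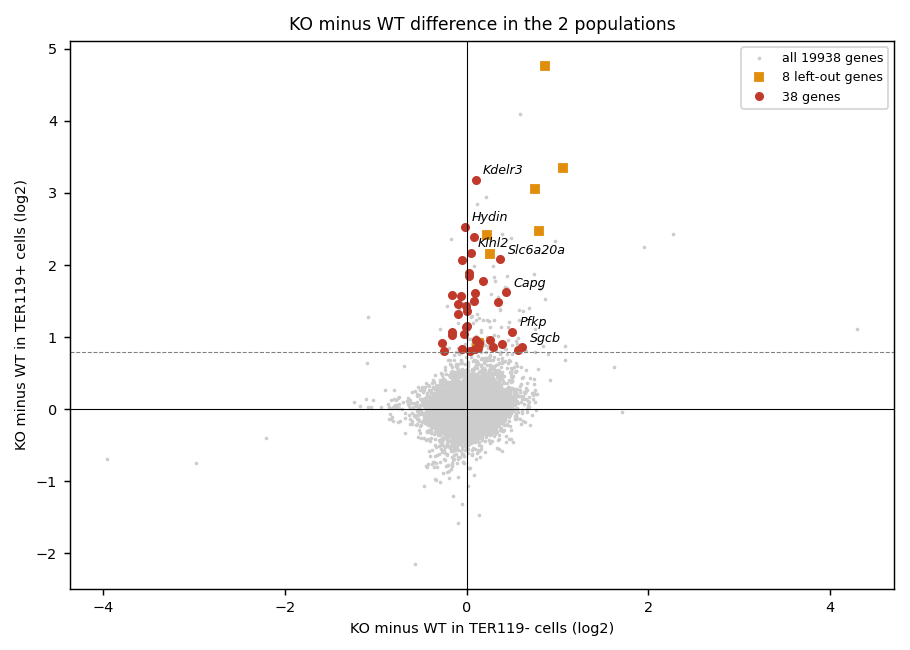
KO minus WT difference in TER119 positive cells (log2, y axis) against that in TER119 negative cells (log2, x axis) for all 19938 genes (grey), the 8 genes left out by name (orange squares) and the 38 genes (red). The red points lie between -0.27 and 0.61 on the x axis and above 0.8 on the y axis by the rule.

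The level in WT TER119 negative cells divided the genes. It was below 6 in 28 of the 38, at 4.29 to 5.84, and at least 6 in 10 (26.3%), against 39.1% of all genes and 8.34% of genes with a WT TER119 positive mean below 6. The 10 were S100a8, Lilrb4a, Myo5a, Pfkp, Capg, Lilr4b, Gkap1, Klhl2, Tfcp2 and Simc1. The WT TER119 positive mean was above the WT TER119 negative mean in 14 of the 28 genes. In the 10 it was always below, which the limit of 6 on both means fixes in advance. In 7 genes, Atl1, Shroom2, Neu3, Cfap57, Folr2, Snx21 and Fbxl2, every WT TER119 positive array lay above all 8 TER119 negative arrays. Over all arrays the first principal component parted the fractions and held 84.6% of the variance. The share of all genes was not counted for these 7, for the 14 or for the counts that follow, so nothing is read from them. The rule sets the KO TER119 positive level, so its place is a description: for 26 genes the lowest KO TER119 positive array lay above all 8 TER119 negative arrays, and for 5 the highest lay below all 4 WT TER119 negative arrays. Kdelr3 and Hydin were at similar levels in both WT fractions, with WT TER119 positive minus WT TER119 negative differences of -0.06 and -0.14. S100a8 was at 6.69 ± 0.69 in KO TER119 positive cells (SD, n = 3), against 12.18 ± 0.29 in WT TER119 negative cells (SD, n = 4).

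**Figure D4:**
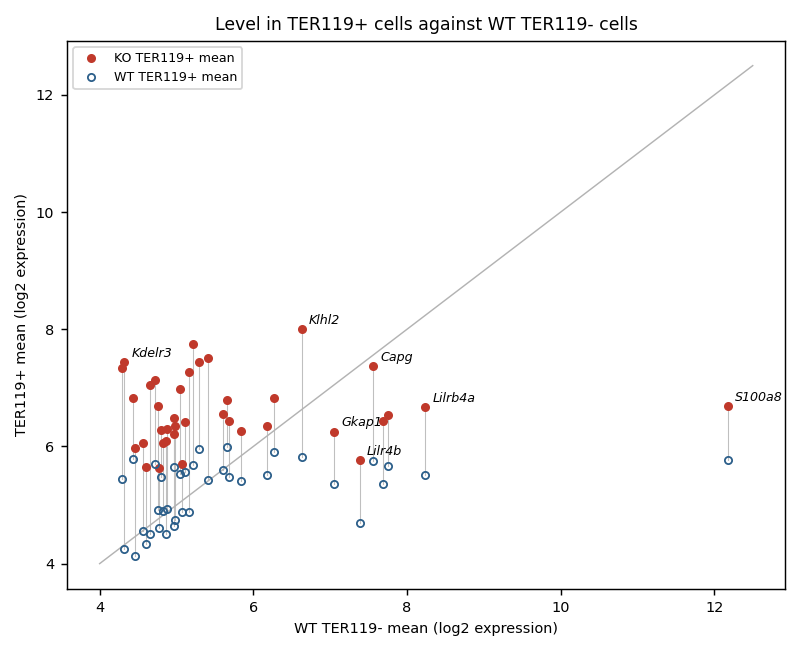
Mean TER119 positive level (log2 expression, y axis) of each of the 38 genes in KO (filled red) and WT (open blue), joined by a line, against the WT TER119 negative mean (log2 expression, x axis). The diagonal marks equal levels; S100a8 lies far below it at 12.18 on the x axis, and Kdelr3 crosses it.

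Genes related to the 38 by name, and their neighbours on the chromosome, were called in TER119 positive cells about as often as genes at large, so nothing is read from these counts. Of 77 relatives with the same symbol stem as 19 of the genes, 1 was higher in KO TER119 positive cells after adjustment (1.3%, against 0.903% of all genes) and 0 were lower. It was S100a10, a relative of S100a8, which was at 9.03 in KO and 7.46 in WT TER119 positive cells (difference 1.56, SE 0.27, adjusted p = 0.00516 in limma). The median difference of the relatives was -0.04, and 62 of them were also below 6 in WT TER119 positive cells. Of 74 neighbouring genes that are not among the 38, 0 were called in either direction by limma's adjusted test, and 4 had an unadjusted p below 0.05, against 3.22% of all genes higher and 2.11% lower at that level. Their differences ran from -0.37 to 0.63, and Lilr4b and Lilrb4a were the only adjacent pair among the 38. Beside Kdelr3, 0 of 18 measured genes of retrieval and stress in the endoplasmic reticulum were called in TER119 positive cells by limma's adjusted test, and 0 had an unadjusted p below 0.05. Of 16 measured genes of the CtBP corepressor complex 0 were called in either fraction, with 1 at an unadjusted p below 0.05 in TER119 positive and 0 in TER119 negative cells, and of 25 of the KLF and SP family only Klf8 was. Klf8, Lgals3 and C1qtnf12, 3 genes known from other work as KLF3 targets, were all called higher in KO TER119 positive cells, with a median of 3.06. The rule keeps all of them out of the 38: Klf8 and C1qtnf12 by name, and Lgals3 by its WT TER119 positive mean of 7.58.

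Markers of other cell types were compared on the same arrays. In TER119 positive cells the neutrophil list, of which S100a8 is 1 of 20 genes, had array means of 5.06 to 5.38 in KO and 4.92 to 5.18 in WT. Only S100a8 of these genes is among the 38. The list had a median difference of 0.13, and 1 of its other 19 genes had an unadjusted p below 0.05 in limma. S100a9, a listed neighbour of S100a8, was at 6.415 in KO and 5.782 in WT (difference 0.63, adjusted p = 0.383 in limma). In TER119 negative cells the list stood at 9.07 to 9.60 in KO and 9.26 to 9.76 in WT. The macrophage list was at 8.08 to 8.29 in KO and 8.16 to 8.42 in WT TER119 positive arrays, with 1 of 20 genes, Vsig4, called lower. The megakaryocyte and platelet list was at 8.28 to 8.70 in KO and 9.08 to 9.35 in WT TER119 positive arrays, ranges that do not overlap, with a median difference of -0.77 and 0 of 12 genes called by limma's adjusted test (7 at an unadjusted p below 0.05). The progenitor list did not overlap either, at 5.654 to 5.795 in KO and 5.831 to 5.884 in WT TER119 positive arrays, with 0 of 15 genes called. The hepatocyte-lineage list ran from 5.66 to 7.08 in KO and from 5.84 to 8.02 in WT TER119 negative arrays. In TER119 positive arrays it ran from 11.25 to 11.74 in KO and from 11.08 to 11.83 in WT. WT replicates 1 and 3, the arrays that stand apart, were the lowest at 11.08 and 11.22, and KO replicate 3 was at 11.25. The part of these cell types in the values of the 38 genes was not tested.

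**Figure D5:**
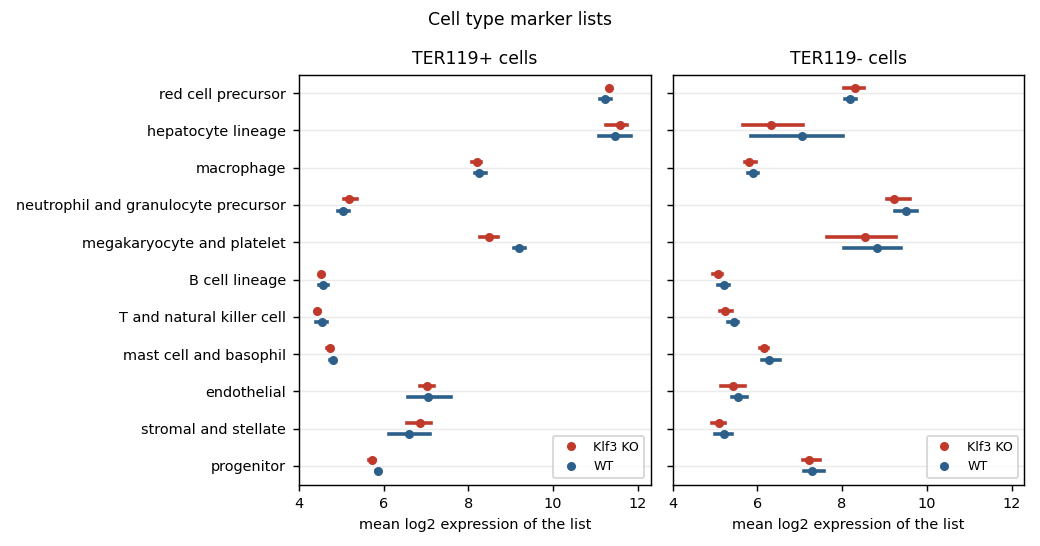
Mean log2 expression of 11 cell type marker lists (x axis) in TER119 positive cells on the left and TER119 negative cells on the right, with KO in red above WT in blue. Points are group means and bars span the lowest to the highest array; the megakaryocyte and platelet list is the one whose KO and WT bars lie apart in TER119 positive cells by the largest distance, at 8.28 to 8.70 and 9.08 to 9.35.

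The limits of the rule were close for a few genes. Fbxl2, with a WT TER119 positive mean of 5.99, was just inside, while B130055M24Rik, with a WT mean of 6.03, was just outside; 90 genes failed only this limit. B130055M24Rik was at 7.47, 7.33 and 7.10 in KO and 6.28, 6.08, 5.87 and 5.90 in WT TER119 positive arrays, and at 5.60, 5.94, 5.91 and 5.60 in KO and 5.88, 5.50, 5.74 and 5.37 in WT TER119 negative arrays. Artn, at 6.11, 6.23 and 6.50 in KO and 5.75, 5.24, 5.62 and 5.28 in WT TER119 positive arrays, had a difference of 0.80 and was just inside; its TER119 negative arrays were at 4.51, 4.64, 4.50 and 4.56 in KO and 4.75, 5.26, 4.47 and 4.72 in WT. Uvssa had 0.79 and was just outside, and 310 genes failed only this limit. It was at 6.69, 6.65 and 6.63 in KO and 5.92, 6.0, 5.91 and 5.62 in WT TER119 positive arrays, and at 5.75, 5.74, 5.57 and 5.32 in KO and 5.44, 5.28, 5.51 and 5.51 in WT TER119 negative arrays. S100a8 had the smallest gap, and Mir300, with a difference of 1.32 and a gap of -0.92, was the 1 gene that failed only the condition on the gap. Mir300 was at 6.97, 6.85 and 5.0 in KO and 4.71, 5.93, 4.42 and 4.76 in WT TER119 positive arrays, so KO replicate 3 lay below WT replicate 2, and at 4.15, 4.30, 4.29 and 4.34 in KO and 4.08, 4.07, 4.13 and 4.35 in WT TER119 negative arrays. Other probe sets were present for 3 of the genes, and that of Gkap1 read 6.30 in KO and 5.78 in WT TER119 positive arrays, a difference of 0.52, below the rule's limit. The probe set kept for Gkap1 was dimmer on these arrays, at 6.25 in KO and 5.36 in WT. It was kept for its mean over all arrays, so TER119 negative values bear on the choice of Gkap1.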

How the data were processed

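The values used were log2 expression per probe set as deposited by the authors, made with RMA and Partek per the submitters' processing notes, with versions not given in the sources used here; scanner files were not used here, so background correction and summarisation could not be varied. Of 35399 probe sets, 21789 had 1 gene symbol, 1621 several and 11989 none in the platform table. For 999 symbols with several probe sets the one of highest mean was kept, which left 19938 genes. All 38 genes matched the RefSeq gene table of GRCm38.p6. Columns of other samples numbered 0. No depth is known for arrays, and their number limits the precision.

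Group means were fitted over all 15 arrays together with limma 3.58.1 (R 4.3.3), with 11 residual and 4.91 prior degrees of freedom and a prior SD of 0.173. Tests were 2-sided, with Benjamini-Hochberg adjustment over 19938 genes and a threshold of 0.05. The TER119 negative comparison was tested on simulated data with known shifts. The 38 genes and the gene lists were chosen with earlier results of these data known, and the roles were grouped after the values were seen. Values on every array are given for the 12 genes with the largest difference in TER119 positive cells, the 10 with the largest absolute difference in TER119 negative cells, and those just inside and just outside each limit. Relatives share a symbol stem of at least 3 letters with at most 15 genes. Other settings were another normalization, other probe set rules, a filter on dim genes, a trend in the prior variance, array weights, sex or the hepatocyte list as a covariate, each fraction alone, a replicate block and leaving out arrays.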

Additional observations from a re-analysis of the deposited data

Results flagged for a closer look

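Of 114 groups of 4 arrays tested over the 38 genes, 5 had an array far from the other 3, where chance gives about 1 in 20 groups. Folr2 was at 4.17 on WT TER119 negative replicate 3, against 4.50 to 4.54 on the others. Gkap1 was at 5.0 on WT TER119 positive replicate 3, against 5.44 to 5.51. Lilrb4a was at 8.84 on WT TER119 negative replicate 2, against 8.02 to 8.04. Trpm6 was at 4.84 on KO TER119 negative replicate 4, against 4.51 to 4.55. Trpv2 was at 6.26 on WT TER119 negative replicate 3, against 5.47 to 5.54.

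A further 57 probe sets that lack a single gene symbol met the same 3 conditions, with differences of 0.80 to 2.59, and 3 of them carry several symbols. They entered no comparison.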

How the results depend on the processing

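Counts of called genes are from limma's adjusted test. In TER119 negative cells 17 genes were called, and 31 with array weights, 10 with the hepatocyte list as a covariate, 4 with only the TER119 negative arrays, 7 with sex as a factor and 8 without the arrays that stand apart. Without 1 array at a time the count ran from 8 (without KO replicate 3 or WT replicate 2) to 24 (without WT replicate 3), with 11 without KO replicate 2. Of the 38 genes 0 were called there, as under every other setting and without any 1 array, except that array weights called 1, Ano1, at a difference of 0.71 (adjusted p = 0.0481). In TER119 positive cells 203 genes were called, and 386 with array weights, 350 with only the TER119 positive arrays, 148 to 184 without 1 array and 137 without the WT arrays that stand apart (chosen after seeing the data). The rule found 38 genes, 32 (30 shared) after quantile normalization was repeated, 39 (38 shared) with the probe set of highest variance and 36 (36 shared) with the mean of probe sets. Without 1 array it found 32 to 41, with at least 30 shared.

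The labels do not say whether the replicate numbers pair the samples, and the values do not settle it. Correlations of same-numbered KO and WT deviations were -0.224 to 0.254 in TER119 positive and -0.384 to 0.654 in TER119 negative cells. Between same-numbered arrays of the 2 fractions they were -0.134 to 0.0469 in KO and -0.312 to 0.125 in WT. With the replicate number as a block, 13 genes were called in TER119 negative cells (0 of the 38) and 186 in TER119 positive cells.

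Of 716 recomputed differences of the 38 genes in TER119 negative cells, 68 in 17 genes had the opposite sign, all uncalled (lowest adjusted p = 0.809), so the sign of these 17 is not settled. Without 1 array at a time the ranges that crossed 0 were -0.18 to 0.10 for Atl1, -0.10 to 0.045 for Atp6v1e2, -0.091 to 0.053 for Cfap57, -0.18 to 0.053 for Cyp4f39, -0.11 to 0.012 for Folr2, -0.11 to 0.045 for Hydin, -0.14 to 0.20 for Klhl2, -0.38 to 0.066 for Lilr4b, -0.071 to 0.20 for Lilrb4a, -0.051 to 0.095 for Padi2, -0.014 to 0.20 for Simc1, -0.12 to 0.037 for Snx21 and -0.042 to 0.14 for Tppp3. Without the arrays that stand apart the sign turned for 3110040M04Rik (0.018), 9530077C05Rik (-0.040), Cyp4f39 (0.23), Gprc5a (0.059), Hydin (0.12), Klhl2 (-0.25), Padi2 (-0.080), Pnma1 (-0.022) and Simc1 (-0.089). With quantile normalization repeated the sign turned for Atl1 (0.061), Atp6v1e2 (0.089), Cfap57 (0.078), Folr2 (0.059), Hydin (0.071), Klhl2 (-0.017), Lilrb4a (-0.12) and Snx21 (0.024). With array weights the sign turned for Cyp4f39 (0.058), Hydin (0.022), Klhl2 (-0.080), Lilrb4a (-0.036) and Tppp3 (-0.019). With the hepatocyte list as a covariate the sign turned for Cyp4f39 (0.017), Hydin (0.021), Klhl2 (-0.16), Lilrb4a (-0.035), Padi2 (-0.031) and Simc1 (-0.017). With sex as a factor the sign turned for Atl1 (0.0029), Cfap57 (0.17) and Lilrb4a (-0.069). Of 678 differences in TER119 positive cells 0 turned and 4 moved by more than 1 SD. The genes were chosen for a difference without overlap on these arrays, so the count of 0 turned is no check of them. The cause of the moved counts was not tested, beyond the fewer arrays where a setting leaves arrays out. With the filter on dim genes 6 of the 38 had no value. The number of arrays and the dim signals, without detection calls, limit the precision.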
